A study of Mus musculus with 6 samples.

Results

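Keratins and small proline-rich proteins (Sprr) were examined in bulk RNA sequencing data of colorectal tissue from C57BL/6 mice with colitis. Members were all genes of the deposited table whose symbol starts with Krt or Sprr and a digit, which gave 50 of 18268 genes: 40 keratins and 10 Sprr genes. All were adult males that drank dextran sulfate sodium (DSS), which damages the colonic epithelium, for 7 days. By gavage over 6 days, 3 mice received berberine (BBR), an alkaloid from plants, and the other 3 received sulfasalazine (SASP), an established colitis drug that gut bacteria cleave to an aminosalicylate. Healthy mice and colitis mice without a drug were not analysed here, so every difference is between the drugs, and which of them moved a gene cannot be told apart. Levels are FPKM, that is, fragments per kilobase of a transcript, adjusted for library size.

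Keratins are the intermediate filament proteins of epithelial cells, and each filament is built from pairs of one type I and one type II keratin. Simple columnar epithelium, such as that of the colon, makes the type II keratin Krt8 with the type I keratins Krt18, Krt19 and, in mature surface cells, Krt20. Squamous epithelium, such as that of the anal canal and skin, makes Krt5 with Krt14 in its basal layer and Krt1 with Krt10, or Krt4 with Krt13, above it. Sprr proteins are short, proline-rich proteins that are cross-linked into the cornified envelope of squamous cells, and the Sprr2a genes are also made by gut epithelium.

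The libraries were similar in size, with an estimated 16700000 to 18200000 reads each and 11518 to 12307 genes at 1 FPKM or more. Across the 12072 genes tested, log2 values of BBR mouse 3 correlated with those of BBR mice 1 and 2 at 0.953 and 0.949, while the latter mice correlated at 0.987 and SASP mice at 0.982 to 0.989. Between the groups the correlations were 0.916 to 0.953, and BBR mouse 3 correlated with SASP mouse 2 at 0.953, as did BBR mouse 1. BBR mouse 3 was thus no closer to its own group than to that SASP mouse, and results that rest on it are given with and without it. Nothing in the labels states whether samples came from separate cages or batches.

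Levels of the members ranged from none to among the highest of all genes. Sprr2a3 was the gene of rank 2 or 3 by FPKM in every mouse. Krt8 and Krt19 ranked between 10 and 16 and between 22 and 32. At the other end, 27 of the 50 members stayed under 0.5 FPKM in all 6 mice. A gene was tested when it reached 1 FPKM in at least 3 mice, which 15 members did: the 5 simple keratins, 5 other keratins and 5 Sprr genes. The remaining 35 were not tested in this way and are described by their values.

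**Figure D1:**
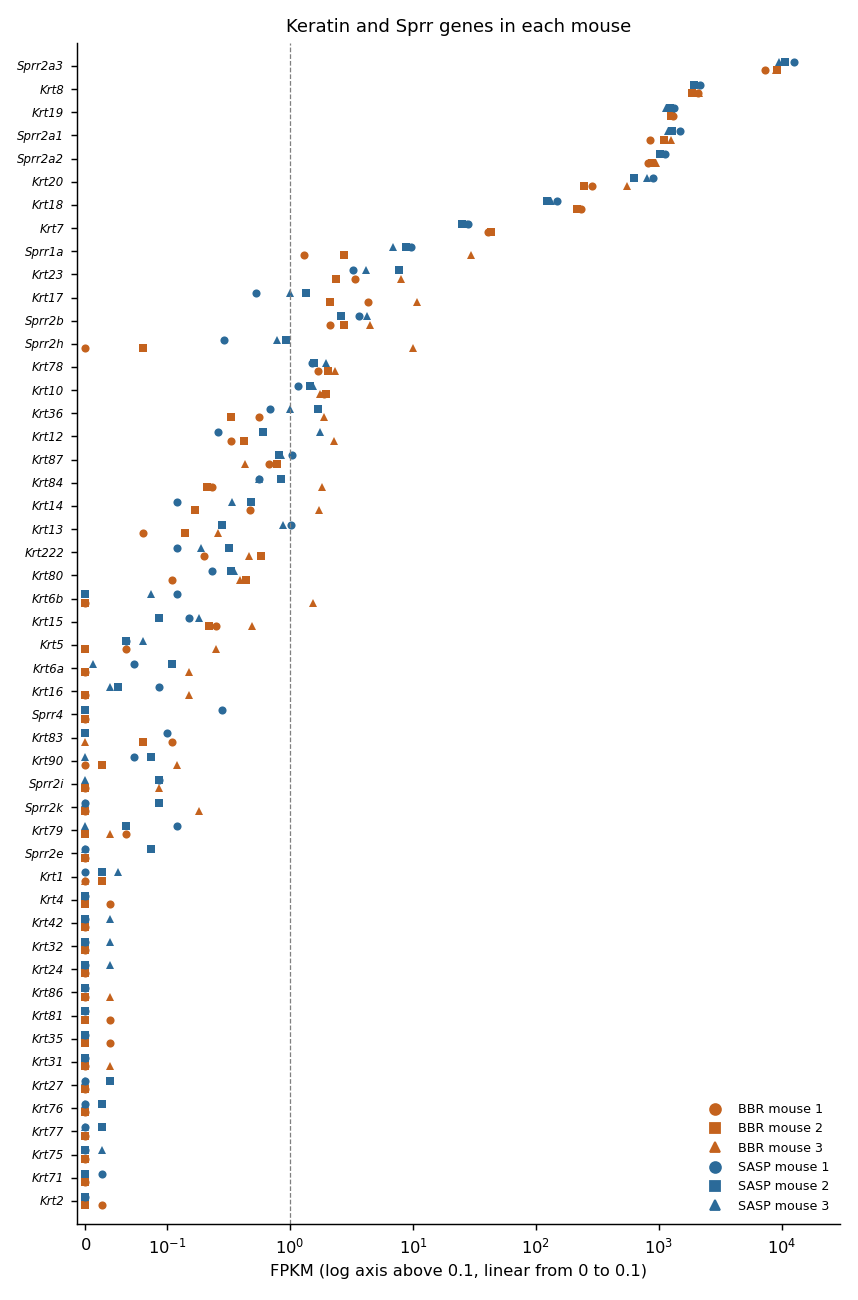
FPKM of all 50 keratin and Sprr genes in each of the 6 mice, ordered by mean level, on an axis that is logarithmic above 0.1 and linear below, with BBR in orange, SASP in blue and a dashed line at 1 FPKM. Krt8, Krt18, Krt19, Krt20 and the Sprr2a genes stand above all other members, and BBR mouse 3 (orange triangle) is the highest point in 19 of the 50.

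Of the 15 tested members, 2 passed an adjusted p-value of 0.05 in limma, both simple keratins and both higher in colitis mice receiving BBR, and 0 were lower. An unadjusted p of at most 0.05 was reached by 4 members, the other two being Krt17, with higher values, and Krt20, with lower ones, and by 31.8% of all tested genes. Among all 12072 genes tested, 1069 passed (8.86%), of which 461 were higher (3.82%) and 608 lower (5.04%). In 7 of the 15 tested members the groups did not overlap, which held in 37.9% of all tested genes. The median log2 fold change, BBR minus SASP on the log2(FPKM + 1) scale, was -0.14 over the 15 members and 0.10 over all tested genes. With no filter on low values all 50 members could be tested, and the same 2 passed where 3.33% of all genes did.

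The simple keratins were examined first, because they report on the columnar epithelium of the tissue. Krt18 and Krt7 were higher under BBR, Krt8 and Krt19 showed no difference beyond the spread between mice, and Krt20 had lower values under BBR without passing the threshold. Krt18 (Gene ID 16668), the type I partner of Krt8, was at 234, 216 and 227 FPKM in BBR and at 149, 123 and 133 FPKM in SASP mice. The groups did not overlap, and the values within each group lay close together. Its means were 226 ± 8.63 and 135 ± 13.1 FPKM (SD, n = 3 each). This gave a log2 fold change of 0.75 (SE 0.11) and an adjusted p of 0.0163 in limma. Krt7 (110310), a type II keratin of ducts and transitional epithelium, was at 40.4, 42.8 and 41.9 FPKM in BBR and at 27.9, 24.8 and 27.4 FPKM in SASP mice. Again every BBR mouse was above every SASP mouse. The log2 fold change of Krt7 was 0.63 (SE 0.094, limma adjusted p = 0.0166). Without SASP mouse 1, SASP mouse 3 or BBR mouse 1 both genes missed the threshold (adjusted p of 0.0557 to 0.0927), and Krt7 also without BBR mouse 2 (0.0501), with log2 fold changes that stayed between 0.68 and 0.82 for Krt18 and between 0.58 and 0.66 for Krt7 whichever mouse was left out. In the fit without SASP mouse 3, 51 of all genes passed (0.428%).

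Krt8 (16691), the main type II keratin of the colon, was at 2067, 1852 and 2136 FPKM in BBR and at 2147, 1932 and 1913 FPKM in SASP mice. The groups overlapped fully. Its log2 fold change was 0.014 with a 95% interval from -0.38 to 0.40 (limma adjusted p = 0.960). Krt19 (16669), the smallest keratin and a partner of Krt8, was at 1299, 1247 and 1256 FPKM in BBR and at 1337, 1234 and 1138 FPKM in SASP mice. These values overlapped too, with a log2 fold change of 0.039 and an interval from -0.30 to 0.38 (limma adjusted p = 0.868). Of the 50-base words of Krt8 transcripts, 26.9% also occur in a pseudogene, Krt8-ps, so some of its reads may have been assigned there. Differences within these intervals could not be seen with 3 mice per group.

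Krt20 (66809), a keratin of differentiated surface colonocytes, was at 285, 245 and 551 FPKM in BBR and at 899, 623 and 796 FPKM in SASP mice. All BBR values lay below all SASP values, but BBR mouse 3 came near the lowest SASP mouse. Means were 360 ± 166 and 773 ± 139 FPKM (SD, n = 3 each), and the log2 fold change was -1.18 (SE 0.31, limma adjusted p = 0.0613). Without BBR mouse 3 it was -1.53 and passed the threshold (adjusted p = 0.00328). In that fit 33.8% of all genes passed.

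**Figure D2:**
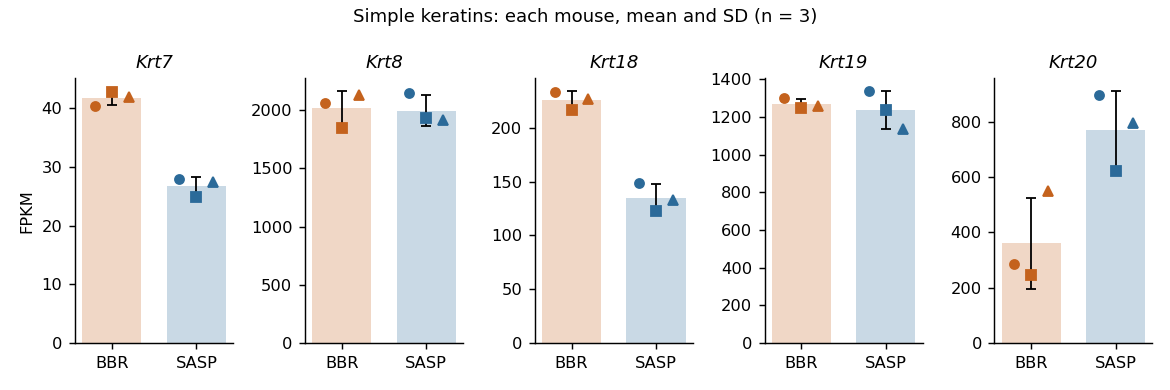
FPKM of the 5 simple keratins, with 1 point per mouse (circle, square and triangle for mice 1, 2 and 3), bars at the group mean from 0 and error bars of 1 SD (n = 3 per group). Krt7 and Krt18 are separated between BBR and SASP with little spread, Krt8 and Krt19 overlap, and the BBR value of Krt20 in mouse 3 (551 FPKM) lies between the other BBR mice and the SASP mice.

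Because type I and type II keratins pair, their summed levels were set side by side in each mouse. The type I keratins Krt18, Krt19 and Krt20 summed to 1818, 1709 and 2034 FPKM in BBR and to 2385, 1979 and 2066 FPKM in SASP mice. The type II keratins Krt7 and Krt8 summed to 2107, 1894 and 2177 FPKM in BBR and to 2175, 1957 and 1941 FPKM in SASP mice. The type I to type II ratio was 0.863, 0.902 and 0.934 in BBR and 1.096, 1.011 and 1.065 in SASP mice. It was below 1 in every BBR mouse and above 1 in every SASP mouse, so the groups did not overlap. Of these type I keratins only Krt20 had lower values under BBR, without passing the threshold, while Krt18 was higher and Krt19 overlapped. The separation of the ratio therefore rests on Krt20. Within type I, Krt20 made up 15.7%, 14.4% and 27.1% in BBR and 37.7%, 31.5% and 38.5% in SASP mice. Krt18 made up 12.9%, 12.7% and 11.2% in BBR and 6.23%, 6.19% and 6.43% in SASP mice. Per 100 FPKM of Krt8, Krt18 stood at 11.2 ± 0.557 FPKM in BBR and at 6.73 ± 0.341 FPKM in SASP mice (SD, n = 3 each). The total of all 5 simple keratins overlapped between the groups, at 3603 to 4211 FPKM in BBR and 3936 to 4560 FPKM in SASP mice. These sums, shares and ratios were not tested.

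**Figure D3:**
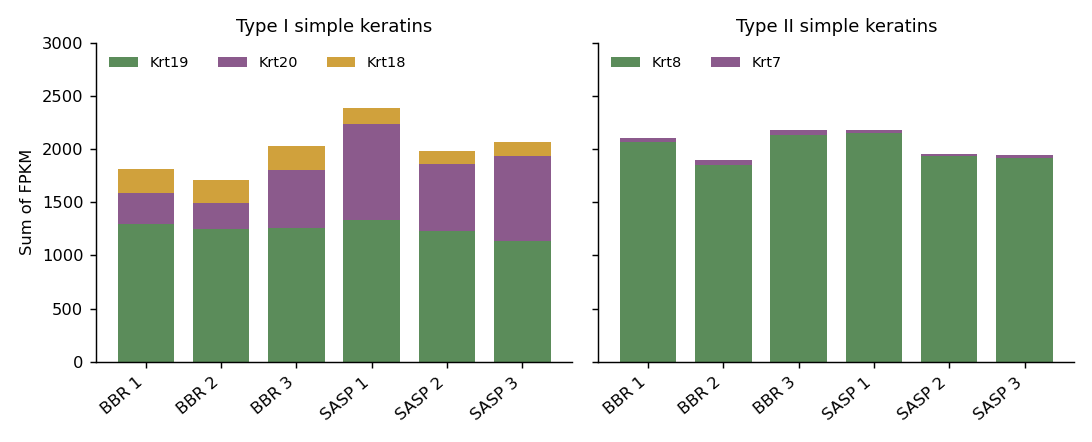
Stacked FPKM of the type I (left) and type II (right) simple keratins in each mouse, with 1 bar per mouse and 1 colour per gene. Krt20 (purple) takes 14.4% to 27.1% of the type I sum in BBR and 31.5% to 38.5% in SASP mice, Krt18 (yellow) takes the larger share in BBR, and Krt8 makes up nearly all of type II.

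In bulk tissue, fewer cells of a type and less RNA per cell cannot be told apart, so the simple keratins were set beside other genes of the columnar epithelium. Of 12 such genes 1 was higher, 1 was lower and 10 did not pass the threshold, with a median log2 fold change of 0.058. An unadjusted p of at most 0.05 in limma was reached by 3 of them, Cdx2, Vil1 and Cldn7, and by 31.8% of all tested genes. Cdx2, a transcription factor of intestinal identity, was higher in BBR than in SASP mice by 1.496 on the log2 scale (limma adjusted p = 0.0422). Vil1, the actin-bundling villin of the brush border, was lower in BBR mice by 0.55 on the log2 scale (limma adjusted p = 0.0327). Vil1 kept its call only in the fit without BBR mouse 3 among the 6 fits that left out 1 mouse, and Cdx2 only without BBR mouse 3 or SASP mouse 2. The adhesion protein gene Epcam had a log2 fold change of 0.038, Lgals4, a galectin, of 0.021 and Tff3, a goblet cell peptide, of 0.55, with limma adjusted p-values of 0.256 to 0.941. Cldn7 had one of -0.45 (limma adjusted p = 0.0831), with all BBR values below all SASP values. When every sample was centred on these 12 genes, Krt18 and Krt7 stayed past the threshold at 0.60 and 0.49, and Krt20 passed it at -1.32 (adjusted p = 0.0346), where 8.41% of all genes passed. In that fit Krt8 and Krt19 stood at -0.13 and -0.10. The centring used the mean of the 12 genes, among which Cdx2 had the largest log2 fold change (1.496), and it was not repeated without Cdx2.

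Surface colonocyte genes were listed because Krt20 marks mature surface cells. Of 8 genes, 0 passed the threshold in limma (median 0.20), and 2 had an unadjusted p of at most 0.05, Car1 and Ceacam20. Car1 and Car4, carbonic anhydrases, Slc26a3, a chloride and bicarbonate exchanger, and Aqp8, a water channel, had log2 fold changes of 2.48, -0.29, 0.31 and 0.20 (limma adjusted p = 0.0950, 0.410, 0.434 and 0.506). Smooth muscle genes had higher values under BBR, at a sum of 2905 to 6833 FPKM over 10 genes against 763 to 2334 FPKM, and 0 of the 10 passed the threshold in limma (median log2 fold change 1.26, 8 at an unadjusted p of at most 0.05). Leukocyte genes had lower values, at 20.9 to 36.8 against 35.5 to 79.5 FPKM over 8 genes (median -0.74, 0 passed in limma, 5 at an unadjusted p of at most 0.05). Among all tested genes, 8.86% passed and 31.8% had an unadjusted p of at most 0.05, the shares to set beside each of these lists. The part of these lists in the keratin results was not tested.

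The 300 bases around the transcription start of the keratins that differed, and of Krt20, are shown because the first pair had higher and the last lower values under BBR. They cover 250 bases before and 50 bases after the start and are from RefSeq (GRCm38.p6), where 35 of the 50 members had such a window. The Krt18 window lies at chr15:102027966-102028265 on the + strand, that of Krt7 at chr15:101412153-101412452 on the + strand and that of Krt20 at chr11:99438104-99438403 on the - strand. Capitals mark matches, on either strand, to any of 5 motifs. These were the TATA box with the letters TATAAA, the GC box with the letters GGGCGG, the AP-1 motif with the letters TGANTCA, the gamma-activated sequence with the letters TTCNNNGAA and the CDX motif with the letters TTTATNG.
Krt18: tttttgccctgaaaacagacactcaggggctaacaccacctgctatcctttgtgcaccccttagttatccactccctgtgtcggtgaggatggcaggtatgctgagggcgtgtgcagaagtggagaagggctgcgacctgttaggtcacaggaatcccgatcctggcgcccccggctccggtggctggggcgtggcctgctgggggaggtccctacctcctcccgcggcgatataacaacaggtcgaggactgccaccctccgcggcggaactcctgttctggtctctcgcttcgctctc
Krt7: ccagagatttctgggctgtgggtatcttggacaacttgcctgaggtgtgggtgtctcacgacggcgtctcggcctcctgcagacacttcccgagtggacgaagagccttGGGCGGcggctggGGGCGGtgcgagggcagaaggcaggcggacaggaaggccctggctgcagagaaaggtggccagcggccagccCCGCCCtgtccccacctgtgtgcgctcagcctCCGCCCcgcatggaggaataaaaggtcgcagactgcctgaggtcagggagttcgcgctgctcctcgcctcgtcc
Krt20: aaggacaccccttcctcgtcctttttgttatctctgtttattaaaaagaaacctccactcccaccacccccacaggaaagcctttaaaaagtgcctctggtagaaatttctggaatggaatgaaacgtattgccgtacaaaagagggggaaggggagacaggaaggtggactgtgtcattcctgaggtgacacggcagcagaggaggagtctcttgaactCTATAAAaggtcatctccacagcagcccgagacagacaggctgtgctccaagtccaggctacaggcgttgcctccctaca
Krt7 held 4 matches to the GC box and none of the other motifs, and its window was 66.3% G and C. Krt18, at 61.3% G and C, held no match to any of the 5. Krt20 held 1 match to the TATA box, which overlaps its 1 match to the CDX motif, in a window with 50% G and C. Over all 32544 windows of this length, the GC box was found in 35.9%, the TATA box in 13.6%, the CDX motif in 10.8%, the gamma-activated sequence in 8.33% and AP-1 in 7.79%. Over the 35 windows of members these were found in 3, 17, 10, 5 and 8. A match describes the letters only, and no binding was measured.

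The squamous keratins served as a check of whether anal canal or skin was taken along with the tissue. The table held 16 of them, of which 10 stayed under 0.5 FPKM in every mouse and 3, Krt17, Krt10 and Krt78, reached the filter. Together they summed to 8.73, 6.68 and 19.39 FPKM in BBR mice against 4.8, 5.49 and 6.18 FPKM in SASP mice. Every BBR sum was above every SASP sum. Krt17 was the largest part in every BBR mouse, at 4.28, 2.12 and 10.73 FPKM against 0.53, 1.36 and 1.00 FPKM in SASP mice. Whether the sums stay apart without Krt17 was not tested. Krt5 (110308), the type II keratin of basal squamous cells, was at 0.05, 0 and 0.25 FPKM in BBR and at 0.05, 0.05 and 0.07 FPKM in SASP mice. The highest of these, in BBR mouse 3, corresponds to about 9 reads. Krt14 (16664), its type I partner, was at 0.47, 0.17 and 1.73 FPKM in BBR and at 0.12, 0.48 and 0.34 FPKM in SASP mice. Krt15 (16665), also a basal keratin, was at 0.22 to 0.49 FPKM in BBR mice and at 0.09 to 0.18 FPKM in SASP mice, which did not overlap. BBR mouse 3 was highest for all 3 basal keratins. The suprabasal keratins Krt1, Krt2 and Krt77 stayed at or under 0.04 FPKM, and Krt4 was above 0 in 1 mouse, at 0.03 FPKM. Krt13, the partner of Krt4 in wet squamous mucosa, was at 0.07, 0.14 and 0.26 FPKM in BBR and at 1.01, 0.28 and 0.88 FPKM in SASP mice, with all BBR values below all SASP values. Krt87, a hair keratin, did not overlap either, at 0.43 to 0.79 FPKM in BBR mice and 0.82 to 1.04 FPKM in SASP mice. Over the whole table the groups did not overlap in 10 of the 50 members, against 30.7% of all genes. In every mouse at least 99.18% of all keratin FPKM came from the 5 simple keratins.

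Squamous genes outside the Krt and Sprr families were read in the same way. Of 28 listed, 25 were in the table, 10 were tested, 0 were higher and 1 was lower under BBR in limma (median 0.15). An unadjusted p of at most 0.05 was reached by 4 of them, and by 31.8% of all tested genes. These 4 were Ly6d (-1.60) and Serpinb5 (-0.49), with lower values under BBR, and Nccrp1 (0.78) and Ppl (0.60), with higher ones. Ppl met the filter only through its BBR values, at 1.06 to 2.44 FPKM against 0.67 to 0.96 FPKM in SASP mice, so its test depends on the filter. Of the 25, 13 stayed under 0.5 FPKM in all mice, among them Trp63, the transcription factor of basal squamous cells, at or under 0.06 FPKM, the desmosomal cadherin Dsg3 at or under 0.06, the hemidesmosomal collagen Col17a1 at or under 0.14, and loricrin, Lor, at or under 0.09. Filaggrin, Flg, was listed at 0 in all mice. Other genes of the list were well above 0. Tgm3, a transglutaminase, was at 985.5 to 1660 FPKM, and Sfn, a 14-3-3 protein, at 53.4 to 172 FPKM. Serpinb5 was at 24.2 to 43.3 FPKM, Evpl, an envelope protein, at 7.38 to 19.5 FPKM and Pkp1, a desmosomal protein, at 0.81 to 6.32 FPKM. Ly6d, a surface protein of squamous and lymphoid cells, was at 0.58, 1.48 and 0.16 FPKM in BBR and at 6.76, 2.42 and 3.78 FPKM in SASP mice. For Ly6d the log2 fold change was -1.60 (limma adjusted p = 0.0458), and of the 6 fits that left out 1 mouse only the one without BBR mouse 3 kept the call. Skeletal muscle genes, a check for anal sphincter, summed to 8.36 to 20.44 FPKM in BBR mice and to 7.03 to 11.99 FPKM in SASP mice over 9 genes of 10 listed, and 0 of the 2 tested passed at an adjusted or an unadjusted p of 0.05 in limma. None of 6 mesothelial genes reached the filter, and they summed to at most 2.04 FPKM in any mouse. Krt7, a keratin that mesothelium also makes, was at 24.8 to 42.8 FPKM. Levels of different genes do not measure amounts of cells, and the source of Krt7 was not tested.

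**Figure D4:**
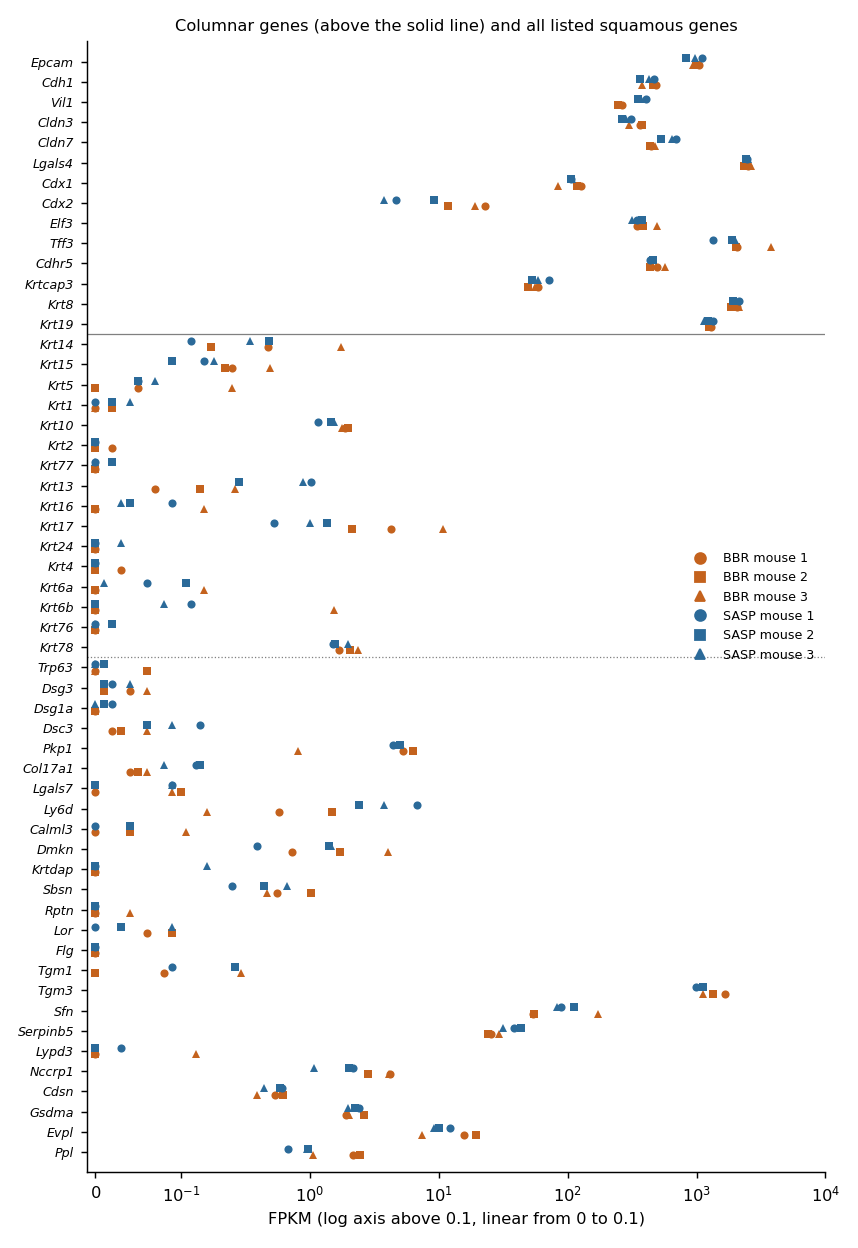
FPKM in each mouse of 12 columnar genes with Krt8 and Krt19 (above the solid line), of the 16 squamous keratins (between the lines) and of all 25 squamous genes outside the families (below the dotted line), on an axis that is logarithmic above 0.1 and linear below, with BBR in orange and SASP in blue. Most squamous genes lie near 0, with 10 of 16 and 13 of 25 under 0.5 FPKM in every mouse, while Krt17 reaches 10.73, Ly6d 6.76, Serpinb5 43.3 and Tgm3 1660 FPKM.

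Among the 3 tested squamous keratins, none passed the threshold in limma, with 1 at an unadjusted p of at most 0.05. That gene was Krt17 (16667), a type I keratin of appendages and of injured or stressed epithelium. It was at 4.28, 2.12 and 10.7 FPKM in BBR and at 0.53, 1.36 and 1.00 FPKM in SASP mice. Every BBR mouse was above every SASP mouse, and BBR mice differed widely among themselves, with a log2 fold change of 1.58 (SE 0.46, adjusted p = 0.0714). It passed without BBR mouse 3 (1.07, adjusted p = 0.0336), where 33.8% of all genes did, and without BBR mouse 2 (2.03, adjusted p = 0.0495). Leaving out any other mouse, it missed the threshold (limma adjusted p of 0.128 to 0.225). The size of the Krt17 difference depends on the constant added before the logarithm, and with 0.01 in place of 1 it was 2.35. Krt10 was at 1.76 to 1.96 FPKM in BBR and 1.16 to 1.55 FPKM in SASP mice, without overlap, with a log2 fold change of 0.27 (limma adjusted p = 0.210). Krt78 was at 1.68 to 2.34 and 1.51 to 1.97 FPKM and overlapped.

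Further keratins outside the simple group were low and uneven. Of 12 hair and root sheath keratins 1 was tested, of 7 other keratins 1, and neither passed. Krt23, a type I keratin of glandular epithelium, was at 3.36, 2.35 and 8.02 FPKM in BBR and at 3.26, 7.63 and 4.11 FPKM in SASP mice, with a log2 fold change of -0.17 (limma adjusted p = 0.796). Krt36, a hair keratin, was at 0.33 to 1.89 and 0.69 to 1.68 FPKM and overlapped. Below the filter, 8 members reached 0.5 FPKM in at least 1 mouse, namely Krt12, Krt13, Krt14, Krt222, Krt6b, Krt84, Krt87 and Sprr2h. BBR mouse 3 held the highest value in 5 of them: Krt14, Krt12 at 2.27, Krt84 at 1.83, Krt6b at 1.53 and Sprr2h at 9.92 FPKM. Krt6b, a type II stress keratin, was listed at 0 in both other BBR mice and at 0 to 0.12 FPKM in SASP mice. It shares 44.5% of its 50-base words with Krt6a, so reads of these paralogs may be exchanged. Krt14 and Krt6b met the level of 0.5 FPKM only through that mouse. Over all 50 members, BBR mouse 3 was highest in 19, or 38%, and over the 27 under 0.5 FPKM in 29.6%. Among all 18260 genes above 0 it was highest in 17.7%, and this difference was not tested.

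Sprr genes lie side by side on mouse chromosome 3, and 3 of them, Sprr2a1, Sprr2a2 and Sprr2a3, are near copies. Their coding sequences are shown because they set what the levels can mean. In the GENCODE M21 transcripts (GRCm38), those of Sprr2a1 and Sprr2a2 were identical over all 249 bases, and that of Sprr2a3 differed at 3 positions, shown in capitals.
Sprr2a1: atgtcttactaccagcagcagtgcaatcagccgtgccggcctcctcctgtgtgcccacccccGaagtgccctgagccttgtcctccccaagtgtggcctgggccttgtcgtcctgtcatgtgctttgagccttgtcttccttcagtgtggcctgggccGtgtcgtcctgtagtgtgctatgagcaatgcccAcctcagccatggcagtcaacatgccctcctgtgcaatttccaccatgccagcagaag
Sprr2a3: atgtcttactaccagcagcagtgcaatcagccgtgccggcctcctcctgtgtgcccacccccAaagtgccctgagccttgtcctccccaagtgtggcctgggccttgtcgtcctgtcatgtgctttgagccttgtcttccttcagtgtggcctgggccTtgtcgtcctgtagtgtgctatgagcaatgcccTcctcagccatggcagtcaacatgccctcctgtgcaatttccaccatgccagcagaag
Counted from the first base of the start codon, with the base of Sprr2a1 first, the first difference is G63A, the next is G159T and the last is A192T, each at the third base of a codon. Of the codons, 31.3% begin with CC and so encode proline. Words of 50 bases were compared, the read length named in the methods, which the labels do not give. Of all 50-base words in the transcripts, 96.3% of those of Sprr2a1, 96.5% of Sprr2a2 and 61.1% of Sprr2a3 also occur in another gene, chiefly in each other. The annotated transcripts of these genes also differ in length. Division of the reads among them is therefore uncertain, and their sum is the firmer value. Sprr2b shares 14.1% of its words with the Sprr2a genes, so reads may be exchanged. This bears mainly on Sprr2b, which was at only 2.12 to 4.48 FPKM and may hold reads of the Sprr2a genes.

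The 5 tested Sprr genes had log2 fold changes below 0 (median -0.31), as did 39.2% of all tested genes, and 3 of the 5 are the near copies. Of the 5, 0 passed the threshold or an unadjusted p of 0.05 in limma. The 3 Sprr2a genes summed to 8960, 11152 and 11122 FPKM in BBR mice against 15100, 12875 and 11707 FPKM in SASP mice. All BBR values lay below all SASP values, and the gap between the nearest mice was small. Fitted as 1 gene, the sum had a log2 fold change of -0.34 (limma adjusted p = 0.444). It took up 1.92%, 2.42% and 2.36% of all FPKM in BBR and 3.10%, 2.73% and 2.45% in SASP mice. Sprr2a3 made up 80.2% to 82.7% of the sum in every mouse. Taken singly, Sprr2a1, Sprr2a2 and Sprr2a3 had log2 fold changes of -0.31, -0.27 and -0.36 (limma adjusted p = 0.308, 0.220 and 0.401).

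Among the other Sprr genes, Sprr1a (20753), known from squamous cells and from repairing gut epithelium, was at 1.29, 2.77 and 29.6 FPKM in BBR and at 9.72, 8.85 and 6.89 FPKM in SASP mice. BBR mouse 3 lay above all SASP mice and the other BBR mice below them. The mean FPKM was higher in BBR (11.2 ± 15.9 against 8.49 ± 1.45, SD, n = 3 each), while the log2 values gave the opposite sign. With all mice the log2 fold change was -0.55 with a 95% interval from -2.63 to 1.52 (limma adjusted p = 0.687), and without BBR mouse 3 it was -1.68 (adjusted p = 0.00610). In that fit 33.8% of all genes passed. Without BBR mouse 1 the sign of Sprr1a turned, to 0.19. Sprr2h had the same order of mice, with BBR mouse 3 above all SASP mice and the other BBR mice below them. It was at 0, 0.07 and 9.92 FPKM in BBR mice against 0.29, 0.93 and 0.79 FPKM in SASP mice. Sprr2b was at 2.12, 2.76 and 4.48 FPKM in BBR and at 3.66, 2.59 and 4.19 FPKM in SASP mice, which overlapped. Sprr2e, Sprr2i, Sprr2k and Sprr4 stayed at or under 0.28 FPKM.

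**Figure D5:**
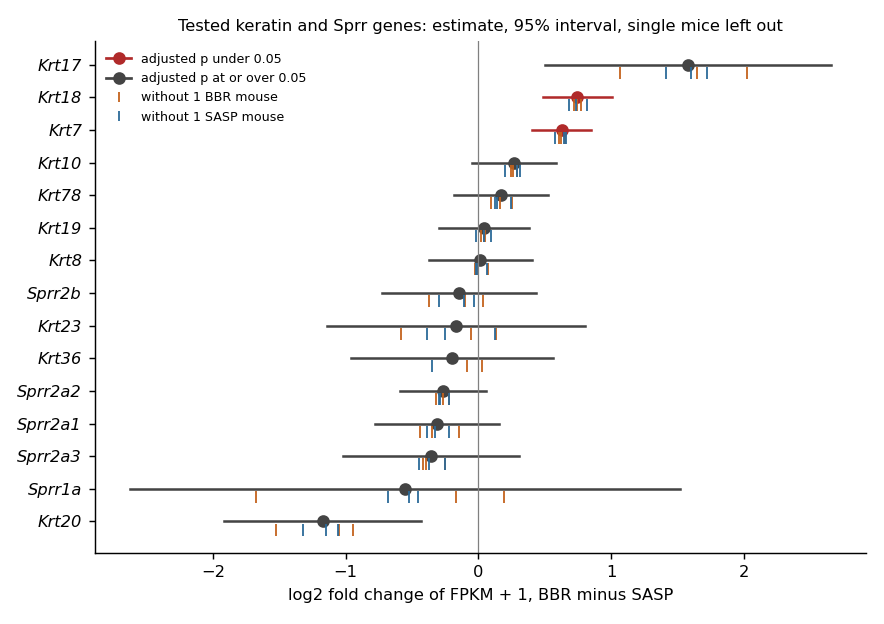
Log2 fold changes (BBR minus SASP, log2(FPKM + 1) scale) of the 15 tested members, with points at the estimate, lines for the 95% interval and small ticks for the fits that each left out 1 BBR (orange) or 1 SASP (blue) mouse. Krt18 and Krt7 (red) passed the threshold, the ticks of Sprr1a spread from -1.68 to 0.19, and those of Krt20 lie between -1.53 and -0.95.

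Genes that work with these proteins were read from lists. Of 15 genes listed as keratin linkers and regulators, 1 was higher, 2 were lower and 12 did not pass (median 0.15). Among all tested genes 8.86% passed and 31.8% had an unadjusted p of at most 0.05, for this list and those below. Not all of the listed genes act on keratins directly, as the descriptions of Lmna and Bfsp1 show. Lmna, which encodes lamins A and C of the nuclear lamina, was at 116, 123 and 107 FPKM in BBR and at 64.4, 60.6 and 50.3 FPKM in SASP mice, a difference of 0.97 on the log2 scale (limma adjusted p = 0.0105). Bfsp1, a filament protein best known from the lens, was lower in BBR than in SASP mice by 0.91 (adjusted p = 0.0186), and Dsc2, a desmosomal cadherin, by 0.56 on the log2 scale (adjusted p = 0.0392). Each of the 3 kept its call without BBR mouse 3. Without SASP mouse 1 or 3 or BBR mouse 1 each lost it, Bfsp1 and Dsc2 also without BBR mouse 2 and Dsc2 without SASP mouse 2. The desmosomal genes Dsg2 and Dsp had log2 fold changes of 0.15 and 0.063, and Sfn had one of -0.23 (limma adjusted p = 0.392, 0.799 and 0.734). Of 13 listed partners in the cornified envelope 8 were tested, 0 passed in limma and 1 had an unadjusted p of at most 0.05, Ppl (median 0.028). As stated above, Ppl met the filter only through its BBR values. Tgm3, S100a10, Anxa1 and S100a11 had log2 fold changes of 0.34, 0.00, -0.32 and 0.024. Among 10 tested genes associated with epithelial repair 1 was higher, 0 were lower and 5 had an unadjusted p of at most 0.05 in limma, namely Ly6a, Clu, Il1rn, Il33 and Ccn2 (median -0.071). Il33 met the filter only through its BBR values, at 1.10 to 1.67 FPKM against 0.55 to 0.87 FPKM in SASP mice. Il1rn, the antagonist of the interleukin-1 receptor, was higher in BBR than in SASP mice by 0.98 (adjusted p = 0.0186), a call lost without BBR mouse 1, SASP mouse 1 or SASP mouse 3. Ly6a, a surface protein of repairing epithelium and of interferon-exposed cells, was at 376, 281 and 1210 FPKM in BBR and at 2988, 1678 and 2148 FPKM in SASP mice, a difference of -2.13 on the log2 scale (limma adjusted p = 0.0541). As for Krt20, all BBR values of Ly6a lay below all SASP values, and BBR mouse 3 lay nearest to SASP mice.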

How the data were processed

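RNA of colorectal tissue from 6 colitis mice, 3 receiving BBR and 3 receiving SASP, was sequenced in 1 library per mouse. The authors deposited FPKM per gene, and the submitters' processing notes name Bowtie2 2.2.5, RSEM 1.2.12 and genome build mm9. The annotation is not given in the sources used here. The study's methods describe depletion of ribosomal RNA and single-end reads of 50 bases, while the labels name another library kit. FPKM holds no counts, so library sizes were estimated from 33 to 51 genes per library. These had short transcripts, were above 0 in that library only and were assumed to hold 1 read each, and the median was used. Read numbers given here rest on that assumption, and precision rests on the spread between mice.

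Genes with at least 1 FPKM in at least 3 mice were tested on log2(FPKM + 1) in R 4.3.3 with limma 3.58.1 (empirical Bayes with mean-variance trend) and Benjamini-Hochberg adjustment over all tested genes, at a threshold of 0.05. A constant of 1 understates changes of low genes. The script was tested on simulated data. Mice are numbered in accession order, which pairs none, and nothing states that they were separate in housing or batch, so p-values measure the spread between these samples.

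Named were the simple keratins, every other member past the filter, members reaching 0.5 FPKM in a mouse and, of other lists, up to 4 genes with the highest mean and every gene past the threshold. Squamous genes given beyond this rule, which were picked for levels near or well above 0, and genes singled out by an unadjusted p were added after their values were seen. Members and lists were chosen with earlier results of these data known. Alternatives were constants of 0.1 and 0.01, no filter, a mean of at least 5 FPKM, quantile normalization, median-ratio scaling, centring on columnar genes, no trend, array weights, an unadjusted p and leaving out each mouse. Summing Sprr2a1, Sprr2a2 and Sprr2a3 was added after seeing the data. Sequences came from RefSeq promoter windows (GRCm38.p6) and GENCODE transcripts (GRCm38), a build other than that of the files. Sequences of proteins were not used here.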

Additional observations from a re-analysis of the deposited data

How the results depend on the processing

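Krt18 and Krt7 kept their direction in all settings tried, at 0.60 to 0.85 and 0.49 to 0.66 on the log2 scale, and lost the threshold only when single mice were left out. Over all genes, 1069 passed, against 608 with no filter, 1737 with quantile normalization, 1684 with median-ratio scaling (498 higher, 1186 lower), 7126 with array weights (4636 higher, 2490 lower), 3837 at an unadjusted p, and 51 to 4018 when 1 mouse was left out (51 without SASP mouse 3, 59 without SASP mouse 1, 131 without BBR mouse 1, 371 without BBR mouse 2, 405 without SASP mouse 2 and 4018 without BBR mouse 3). Centring on columnar genes gave 131 higher and 884 lower, against 461 and 608. Of the 15 tested members, 2 passed, against 9 with array weights, 4 at an unadjusted p and 3 with centring. When 1 mouse was left out, 0 to 5 passed (0 without BBR mouse 1, SASP mouse 1 or SASP mouse 3, and 5 of 14 tested without BBR mouse 3). Of all genes, 8.86% passed, against 59% with array weights, 31.8% at an unadjusted p, 8.41% with centring and 33.8% without BBR mouse 3. The counts of members are to be read beside these shares. The median of all tested genes was 0.097, against -0.021 with median-ratio scaling and -0.045 with centring. Signs turned for some members (ranges are over fits without 1 mouse). Krt8 was at -0.12 with median-ratio scaling, -0.13 with centring and at -0.028 to 0.075, below 0 without BBR mouse 1 (-0.0046), BBR mouse 3, SASP mouse 2 (-0.0091) or SASP mouse 3 (-0.016). Krt19 was at -0.10 with both of these scalings and at -0.020 (without SASP mouse 3) to 0.097. Krt78 was at -0.072 with array weights. Sprr2a3 turned no sign. With quantile normalization its log2 fold change was 0, which was fixed by its ranks of 2, 2 and 3 in both groups. That setting gives genes of equal rank the same value, so it cannot show a difference for Sprr2a3. Krt23 ranged from -0.58 to 0.13 (without BBR mouse 2 or SASP mouse 2), Krt36 from -0.35 to 0.027 (without BBR mouse 2), Sprr1a from -1.68 to 0.19 and Sprr2b from -0.37 to 0.036 (both highest without BBR mouse 1). The cause of the turned signs was not tested. No paired analysis was possible because the labels give the groups no shared replicate numbers. Members below the filter, many of them at few reads, were tested only with no filter, where none of them passed.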
